A study of Rattus norvegicus with 15 samples.

Results

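This account compares the inferior colliculus (IC) of sound-stimulated WAR rats, 5 arrays called WAR S, with that of sound-stimulated Wistar rats, 2 arrays called Wistar S. These 7 arrays, chosen by their labels, are part of 15 in the series, which also holds 4 arrays each of unstimulated WAR and Wistar rats (WAR N and Wistar N). WAR, the Wistar Audiogenic Rat, is a strain bred for seizures that loud sound sets off. All rats were males of 12 weeks, and the labels name no transgene, deletion or drug. Both stimulated groups received the same sound, and the IC of both sides was taken 60 min after it. By the study's methods, WAR rats answered the sound with tonic-clonic seizures and Wistar rats did not. The labels give Charles River as the source of the Wistar rats and a medical school colony in Ribeirão Preto as that of the WAR rats, whereas the methods name a single university facility for both. Strain, seizure and response to sound, and colony if the labels are right, therefore cannot be told apart in this comparison. The methods describe more stimulated rats than there are arrays, the labels do not say which rat gave which array, and p-values measure only the spread between these arrays.

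The IC is the midbrain relay where ascending auditory signals converge, and it is the structure in which seizures set off by sound begin. Its output is carried by glutamatergic and GABAergic neurons, while astrocytes clear glutamate and potassium, microglia watch over synapses and endothelial cells form the blood-brain barrier. Seizure activity is known to switch on immediate early genes in neurons and, later, stress and inflammatory genes in glia and vessels. The study drew a diagram of genes it had selected from these arrays. The account below turns to the genes and pathways which that diagram does not name.

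Expression was given as a log2 value per probe set, so that a difference of 1 is a 2-fold change, and every difference below is WAR S minus Wistar S. *Tfap2d*, a transcription factor of the dorsal midbrain, was high in both groups, with a mean log2 value of 11.03 in WAR S and 11.04 in Wistar S. It is shown as a check of the tissue and was not chosen by a rule. The mean over 23 markers of IC and tectum was 8.73 to 8.84 in WAR S and 8.67 and 8.69 in Wistar S. The forebrain gene *Neurod6* (5.12 to 5.26 in WAR S and 5.36 to 5.42 in Wistar S) was low. The cerebellar granule cell gene *Gabra6* was 5.44 to 5.66 in WAR S and 6.01 to 6.51 in Wistar S. Another forebrain gene, *Slc17a7*, was 6.29 to 6.38 in WAR S and 6.64 and 7.16 in Wistar S. All 3 were higher in Wistar S, but none passed the test used below. Of 12 forebrain genes 6 were positive and 6 negative, and of 21 cerebellar genes 9 and 12. The part of neighboring tissue in these values was not tested. Many values were tied. Each pair among the 7 stimulated arrays shared from 2675 to 3286 identical values over 29214 probe sets, against 2 to 13 for a pair of unstimulated arrays and 0 for a stimulated with an unstimulated one. Of 50702 tied values, 50153 (98.9%) sat exactly at the median of the 7 arrays for that probe set. Both Wistar S arrays held the same value for 1629 of 14506 genes (11.2%). A tie can make the measured spread smaller than it would otherwise be, which was not tested. None of the 274 genes called below had such an identical Wistar S pair. That tells nothing about the effect of ties, because the groups of all 274 did not overlap. A Wistar S pair outside the range of WAR S cannot sit at the median, where nearly all ties lay. Of the 274 genes, 66 (24.1%) held a tie among the WAR S arrays, as did 43.3% of all genes.

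The WAR S arrays were not all alike. Sample descriptions number the arrays in separate running series, and the first of them holds WAR S 1, 2 and 5 together with the Wistar S pair, but neither WAR S 3 nor WAR S 4; no source calls this a batch. The log2 value of *Fos*, the classical marker of recent neuronal firing, was 7.65, 7.70, 9.34, 9.00 and 7.66 in WAR S replicates 1 to 5 and 7.51 and 7.49 in Wistar S. *Npas4*, an activity-dependent transcription factor, measured 7.05, 7.27, 8.47, 8.67 and 7.29 in WAR S against 7.20 and 7.08, and *Junb*, a partner of Fos, measured 7.97, 7.99, 8.96, 9.11 and 7.97 in WAR S against 8.00 and 7.89. Only WAR S 3 and 4 were high in these genes, which were named after their values were seen, and WAR S 1, 2 and 5 lay close to the Wistar S arrays. WAR S 4 also carried the serotonin synthesis enzyme *Tph2* at 9.94, where the other 6 stimulated arrays had 5.80 to 6.31, and the serotonin transporter *Slc6a4* at 7.62 against 6.03 to 6.26, both named after their values were seen. The 15 monoamine and cholinergic brainstem genes averaged 7.54 in WAR S 4, 6.78 to 6.85 in the other WAR S arrays and 6.73 and 6.77 in Wistar S. Results are therefore also given for the first running series alone, that is without WAR S 3 and 4.

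Of 14506 genes, each represented by its brightest probe set, 274 (1.89%) differed between WAR S and Wistar S at an adjusted p under 0.05 by limma, 172 (1.19%) higher and 102 (0.703%) lower in WAR S. All 274 had groups that did not overlap, as had 2996 genes (20.7%) in all, 1803 (12.4%) with every WAR S array above both Wistar S arrays and 1193 (8.22%) below. For a single gene the exact 2-sided permutation test over 21 splits of the 7 arrays cannot give less than 0.0476, a value that all 274 reached and some other genes without overlap did not. The diagram accounts for 31 of the 274, chosen by the study on these arrays, which leaves 243, 151 higher and 92 lower. The median difference over all genes was 0.01. Only 4 genes outside the diagram passed the test with at least a 2-fold difference: *Tek* and *Vtn* higher, *Ephx2* and *Hbb-b1* lower. By the study's own kind of rule, at least 2-fold with an unadjusted p of at most 0.05, 39 genes (0.269%) passed. The number of calls depended on single arrays: it was 14 without Wistar S 1, 9 without Wistar S 2, 25 without WAR S 1, 34 without WAR S 2 and 116 without WAR S 5, but 181 and 226 without WAR S 3 and 4. The first running series alone gave 223 calls, 113 of them shared with the 274.

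**Figure D1:**
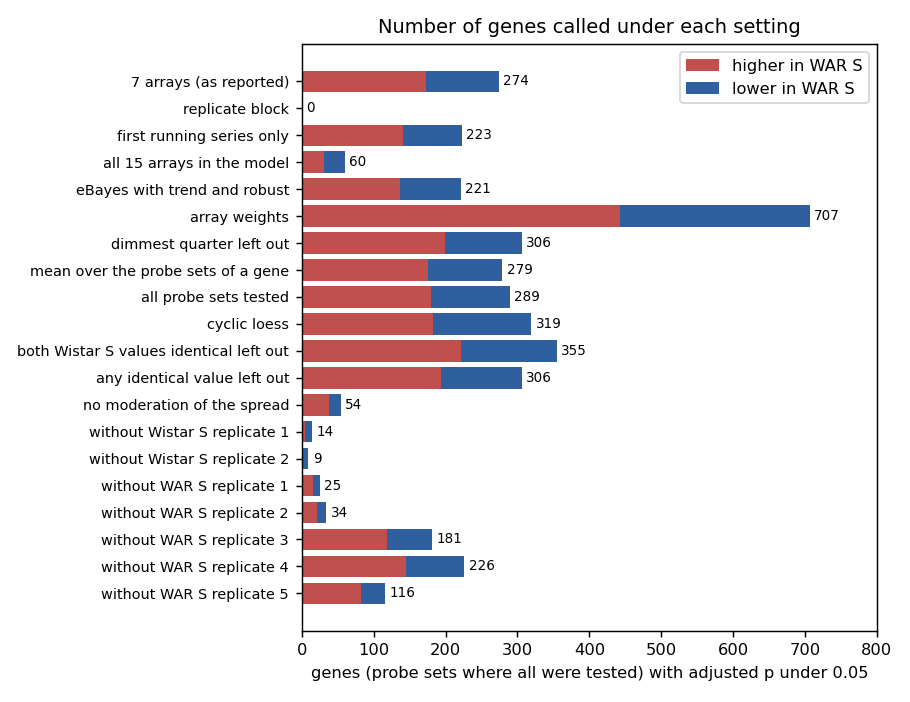
Horizontal bars give the number of genes with an adjusted p under 0.05 (probe sets where all were tested), split into higher (red) and lower (blue) in WAR S, for the comparison as reported and under each alternative. The count of 274 for the 7 arrays fell to 14 and 9 without either Wistar S array and to 0 with the replicate number as a block.

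The largest rises included genes of vessels and microglia. *Tek*, the endothelial receptor for angiopoietins, had log2 values of 8.01, 8.02, 8.33, 7.90 and 7.80 in WAR S replicates 1 to 5 and 7.01 and 6.82 in Wistar S. Every WAR S array lay above both Wistar S arrays, with WAR S 3 the highest, and the difference, given with the standard error of the fit, was 1.09 ± 0.14 (limma, adjusted p = 0.0232). *Vtn*, vitronectin, an adhesive glycoprotein that brain pericytes make, measured 8.16, 7.93, 8.29, 8.19 and 7.93 in WAR S against 7.11 and 7.0. The groups stood about 1 unit apart with a narrow spread within each, a difference of 1.04 ± 0.11 (limma, adjusted p = 0.0144). *P2ry12*, the ADP receptor by which resting microglia sense injured cells, measured 10.08, 10.03, 9.95, 10.04 and 10.05 in WAR S against 9.19 and 9.09. Its 5 WAR S arrays fell within a span far narrower than the gap to Wistar S, and it was called in all 7 fits that left out 1 array, with a difference of 0.89 ± 0.05 (limma, adjusted p = 0.00288). *Fcer1g*, the signaling chain of Fc receptors in myeloid cells, was 9.96, 9.82, 9.80, 10.40 and 10.06 in WAR S against 9.10 and 8.96, a wider spread in which WAR S 4 was the highest, and the difference was 0.97 ± 0.16 (limma, adjusted p = 0.0442). It was called in only 1 of the 7 fits that left out 1 array.

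The other 8 of the 12 largest rises were of mixed function. *Cryab*, the small heat shock protein αB-crystallin, differed by 0.89 ± 0.14, and *RT1-DMb*, a chain of the molecule that loads peptides onto MHC class II, by 0.86 ± 0.12. *Gpr139*, an orphan receptor of neurons, differed by 0.89 ± 0.12. *Cd34*, a surface sialomucin, and *Egfl7*, a secreted factor, are both made by endothelium and differed by 0.85 ± 0.12 and 0.83 ± 0.12. *Rnasek*, ribonuclease kappa, differed by 0.93 ± 0.16, and *Ndc1*, a membrane protein of the nuclear pore, by 0.83 ± 0.14. *Pcdhb3* differed by 0.85 ± 0.15, but it is one of a cluster of closely similar protocadherins whose signals may not be separable. Adjusted p in limma for these 8 ran from 0.0249 to 0.0485. In all 8 every WAR S array lay above both Wistar S arrays. *Pcdhb3* lost its call whichever array was left out. The others were called in only 1 or 2 of the 7 fits that left out 1 array.

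Among the falls, *Ephx2*, soluble epoxide hydrolase, which breaks down the vasoactive epoxides of arachidonic acid, was 5.69, 5.85, 5.64, 5.65 and 5.75 in WAR S against 6.93 and 6.76. All 5 WAR S arrays sat near the low end of the scale, clearly below the lower Wistar S array, and the difference was -1.13 ± 0.07 (limma, adjusted p = 0.00477), called in 6 of 7 fits that left out 1 array. *Glud1*, glutamate dehydrogenase, which feeds glutamate into the citric acid cycle, was 11.12, 11.18, 11.22, 11.12 and 11.17 in WAR S against 11.84 and 11.89. It was smaller in size than the largest falls but as tight as *P2ry12*, with a difference of -0.70 ± 0.04 (limma, adjusted p = 0.0033), and like *P2ry12* it was called in all 7 such fits, which is why it is named here after its values were seen. *Fndc5*, the precursor of irisin, was 9.48, 9.58, 9.71, 9.53 and 9.75 in WAR S against 10.51 and 10.57, a difference of -0.93 ± 0.08 (limma, adjusted p = 0.0124). *Ptpa*, the activator of protein phosphatase 2A, was 9.69, 9.72, 9.78, 9.87 and 9.87 in WAR S against 10.63 and 10.56, a difference of -0.81 ± 0.06 (limma, adjusted p = 0.00781). Both groups kept apart in these genes on every array.

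*Rab1b*, a GTPase of transport from the endoplasmic reticulum to the Golgi, was 10.72, 10.73, 10.49, 10.49 and 10.53 in WAR S against 11.53 and 11.44. It stood lower on all 5 WAR S arrays, with a difference of -0.89 ± 0.09 (limma, adjusted p = 0.0135). *Ppp1r9b*, the dendritic spine scaffold spinophilin, differed by -0.84 ± 0.09, the homeobox gene *Dbx2* by -0.90 ± 0.14 and *S100a13*, a calcium-binding protein, by -0.85 ± 0.12. *Htr3a*, the serotonin receptor that is itself an ion channel, differed by -0.83 ± 0.12 at a low level, from 5.58 to 6.00 in WAR S and 6.61 to 6.75 in Wistar S. It was called in only 1 of the 7 fits that left out 1 array. *C4bpb*, a chain of a complement regulator, differed by -0.78 ± 0.11 at a similarly low level, *Aldh9a1*, an aldehyde dehydrogenase with a part in an alternative route to GABA, by -0.76 ± 0.10, and *Dennd2b*, an activator of Rab GTPases, by -0.73 ± 0.09. *Hbb-b1*, a beta-globin chain, had the largest of the falls, -1.22 ± 0.21 (limma, adjusted p = 0.0467), from 9.68, 9.61, 9.52, 9.78 and 9.16 in WAR S against 10.47 and 11.08. The Wistar S pair itself differed more here than in any other of the 24 genes, and leaving out any 1 array ended the call, as it did for *Dbx2* and *C4bpb*. Probes of *Hbb-b1* may also read the other beta-globin genes. Among these, *Hbb* is named in the diagram and was called too. Of the 24 genes, 12 higher and 12 lower, 14 were also called in the first running series alone, 6 of the rises and 8 of the falls, all 24 keeping their sign.

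**Figure D2:**
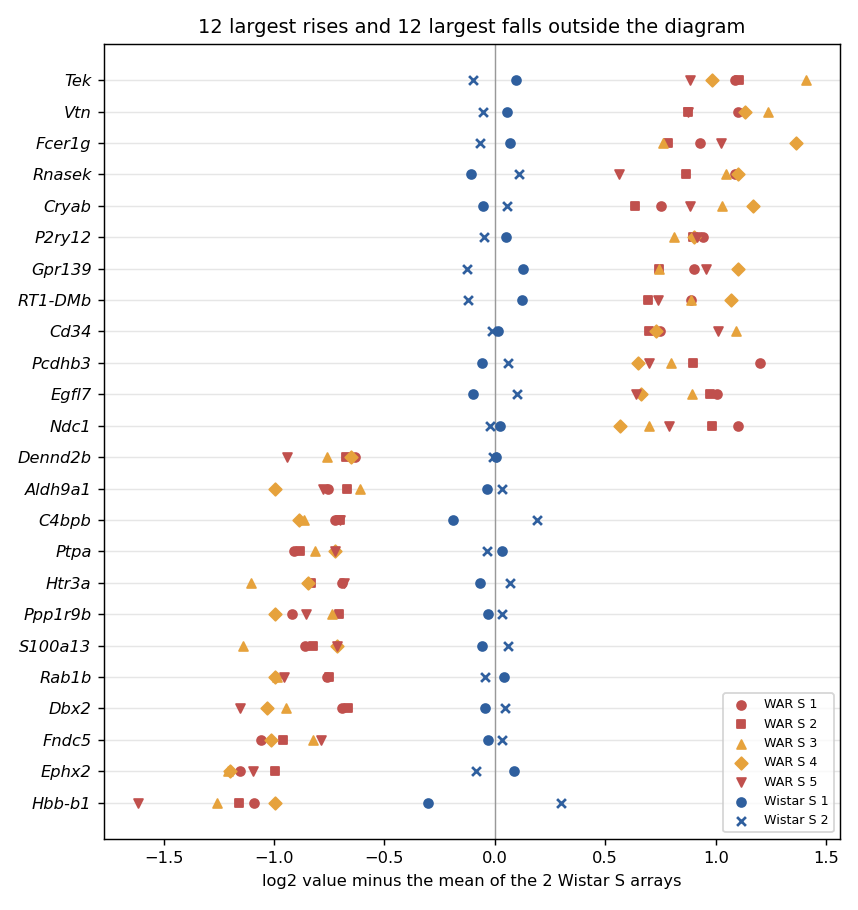
Each row is a gene and each symbol an array, plotted as the log2 value minus the mean of the Wistar S pair. Blue symbols are Wistar S, red ones WAR S 1, 2 and 5 and orange ones WAR S 3 and 4. In every row the WAR S symbols lie on one side of the blue ones, *Tek* highest at a mean difference of 1.09 and *Hbb-b1* lowest at -1.22.

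Gene lists here and below, and their members, were chosen with earlier results of these data known. Their counts and medians leave out members that the diagram names, some of which passed. Their shares beside those of all genes are therefore descriptions and not independent tests. Endothelial genes were mostly higher in WAR S. Of 28 endothelial markers outside the diagram, 4 rose (14.3%, against 1.19% of all genes) and none fell. A positive difference was seen in 25, where 55.7% of all genes had one, and the median was 0.49 against 0.01 for all genes. In 19 of the 28 every WAR S array lay above both Wistar S arrays, as in 12.4% of all genes. Besides *Tek*, *Cd34* and *Egfl7*, the adhesion molecule *Pecam1* passed, with 7.51, 7.49, 7.80, 7.49 and 7.51 in WAR S against 6.67 and 6.94, a difference of 0.75 ± 0.11 (limma, adjusted p = 0.0331). It was called in only 1 of the 7 fits that left out 1 array. WAR S 3 was again the highest, and the mean level of the 28 genes was 8.38 there, 7.97 to 8.08 on the other WAR S arrays and 7.66 and 7.67 in Wistar S. Barrier and junction genes that did not pass were *Cldn5*, claudin-5, at 0.31 ± 0.16 and *Cdh5*, VE-cadherin, at 0.52 ± 0.16, with adjusted p of 0.443 and 0.19, both named after their values were seen. In the first running series the median was 0.34 with 4 members called, of which *Tek* alone was among the 4 above; *Cd34*, *Egfl7* and *Pecam1* lost their calls there, with adjusted p from 0.0537 to 0.0746. In tissue pieces such as these, more cells of a type and more RNA per cell cannot be told apart.

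Over all genes 1.19% rose, 0.703% fell and 55.7% were positive, the shares beside which the counts of this paragraph stand. Of 14 pericyte and smooth muscle markers, *Vtn* and *Tagln*, the contractile protein transgelin, rose, the latter by 0.53 ± 0.09 (limma, adjusted p = 0.0491). Their median was 0.09 (0.04 in the first running series). The 35 genes of angiogenic signaling had a median of 0.01, with 18 positive and 17 negative. A single member passed: *Hey1*, a transcriptional target of Notch, was lower by 0.26 (0.0375 as limma's adjusted p) from 8.09 to 8.18 in WAR S and 8.38 to 8.45 in Wistar S. Of 14 meningeal fibroblast markers, 2 fell and 11 were negative, with a median of -0.11. These were *Slc47a1*, an organic cation exporter, at -0.68 ± 0.11 and *Pdgfra*, a growth factor receptor shared with oligodendrocyte precursors, at -0.50 ± 0.08, with adjusted p of 0.0391 and 0.0353. Mean levels of the meningeal list were 7.22 to 7.34 in WAR S and 7.40 and 7.43 in Wistar S, with no overlap. Such separation was not particular to cell type lists. The mean of a list of sensory receptor genes also kept apart, at 5.38 to 5.435 in WAR S and 5.332 and 5.365 in Wistar S. Leaving out any 1 array ended the calls of *Tagln*, *Hey1* and *Pdgfra*.

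**Figure D3:**
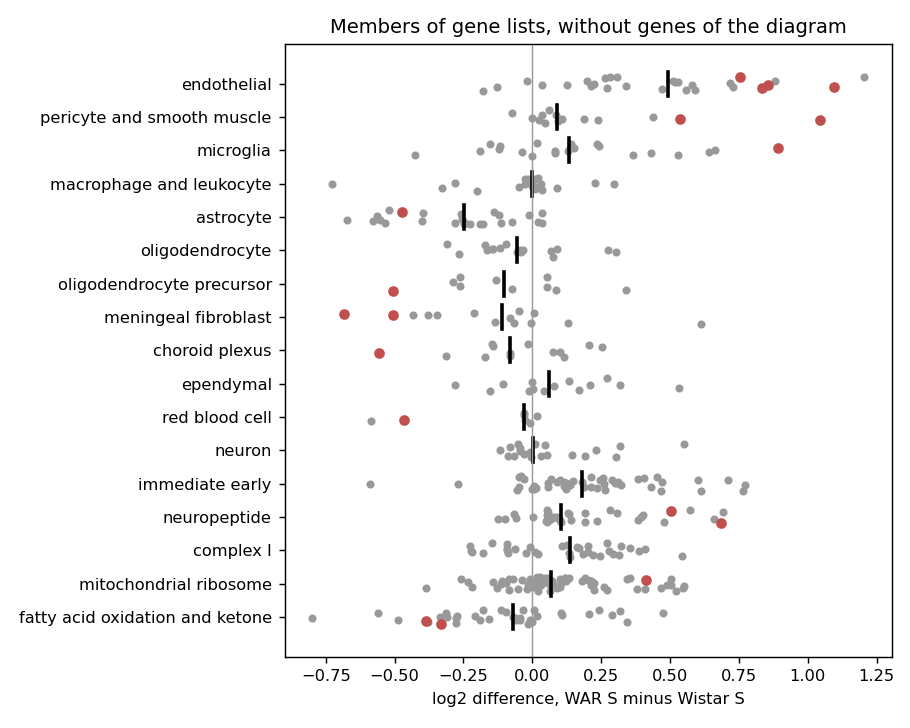
Each point is a gene of a list, without the genes of the diagram, placed by its log2 difference between WAR S and Wistar S. Lists and members were chosen with earlier results of these data known. Red points passed an adjusted p of 0.05, grey ones did not, and black bars are list medians, 0.49 for endothelial and -0.25 for astrocyte markers.

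Microglia and other immune cells gave different pictures. Of 22 microglial markers, only *P2ry12* passed (4.55%, against 1.89% of all genes). Of the 22, 15 were positive, where 55.7% of all genes were, and the median was 0.13. *P2ry13*, its neighbor and a related ADP receptor, just missed with a difference of 0.53 ± 0.09 and an adjusted p of 0.0501, from 8.81 to 9.04 in WAR S and 8.24 to 8.56 in Wistar S. *C1qc*, a chain of the first complement component, differed by 0.43 ± 0.11 (adjusted p = 0.111). The mean of the 22 markers ranged from 7.96 to 8.16 in WAR S and was 7.85 and 7.88 in Wistar S. This was a small shift with no overlap, as the sensory receptor list also showed. None of 21 macrophage and leukocyte markers outside the diagram passed, and their median was 0.00, while *Lair1*, a member that the diagram names, did pass. There the MHC class II invariant chain *Cd74* was 7.58, 7.35, 7.5, 8.11 and 7.46 in WAR S against 8.21 and 8.45, lower on all WAR S arrays though WAR S 4 came close, with a difference of -0.73 ± 0.20 and an adjusted p of 0.148. *RT1-DMb*, whose product works in the same pathway as Cd74, thus lay on the opposite side.

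Signals between immune cells, vessels and glia showed a few calls. Of 41 cytokine and adhesion genes 2 rose, none fell and 31 were positive, with a median of 0.06, where 1.19% of all genes rose and 55.7% were positive. *Cxcl12*, the chemokine by which endothelium and astrocytes guide leukocytes and precursor cells, was 8.55, 8.52, 8.63, 8.43 and 8.36 in WAR S against 7.67 and 7.77, with the groups well apart at a difference of 0.77 ± 0.08 (limma, adjusted p = 0.0135). *Osmr*, the oncostatin M receptor, rose by 0.41 ± 0.07 (limma, adjusted p = 0.0487). Of 45 interferon and complement genes, *Ifit2*, an interferon-induced protein, rose by 0.29 ± 0.05 (limma, adjusted p = 0.0487) and *C1r*, a complement protease, differed by -0.41 ± 0.07 (limma, adjusted p = 0.0426). Both calls ended whichever array was left out.

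Astrocyte markers lay on the other side of zero. Of 25, 22 had a negative difference, where 55.7% of all genes had a positive one. Their median was -0.25, and in 13 every WAR S array lay below both Wistar S arrays, as in 8.22% of all genes. The mean over the 25 markers was 10.61 to 10.82 in WAR S and 10.96 and 11.01 in Wistar S, with WAR S 3 and 4 nearest to Wistar S. A single member passed: *Mlc1*, a membrane protein of astrocyte endfeet, was 10.78, 10.78, 10.89, 10.89 and 10.83 in WAR S against 11.22 and 11.39, with a difference of -0.47 ± 0.06 (limma, adjusted p = 0.0232). In the first running series the median was -0.23 and 4 members fell. The glutamate transporters *Slc1a2* (-0.25 ± 0.07) and *Slc1a3* (-0.52 ± 0.18) and the water channel *Aqp4* (-0.19 ± 0.13), named after their values were seen, did not pass, with adjusted p of 0.136, 0.235 and 0.591.

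Of the lists for GABA and glycine, glutamate receptors, channels and fatty acids, the shares that fell were 1 of 28, 1 of 37, 1 of 60 and 2 of 37, against 0.703% of all genes. *Kcnj16*, an inward rectifier potassium channel, was 9.91, 9.82, 9.93, 9.96 and 9.94 in WAR S against 10.23 and 10.22, a difference of -0.31 ± 0.04 (limma, adjusted p = 0.0321). *Grin2c*, an NMDA receptor subunit, differed by -0.37 ± 0.05 (limma, adjusted p = 0.0216), from 7.73 to 7.87 in WAR S and 8.15 to 8.17 in Wistar S. *Abat*, GABA transaminase, which degrades GABA, was 10.97, 11.00, 11.16, 11.01 and 11.05 in WAR S against 11.39 and 11.46. It stood lower in all WAR S arrays, with a difference of -0.39 ± 0.06 (limma, adjusted p = 0.0321). *Acsl6*, which activates long-chain fatty acids, differed by -0.33 ± 0.06 (limma, adjusted p = 0.0463). Astrocyte marker levels, given above, were also lower in WAR S, and their part in these differences was not tested.

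Remaining glia and the linings of the ventricle showed less. Over all genes 0.703% fell and 55.7% were positive. None of 17 oligodendrocyte markers passed, with a median of -0.05, and none of 14 ependymal markers, whose mean level ran from 7.07 to 7.94 among the WAR S arrays, around 7.28 and 7.43 in Wistar S. Of 13 choroid plexus markers outside the diagram *Kcnj13*, a potassium channel, fell, with a difference of -0.56 ± 0.08 (limma, adjusted p = 0.0299) at a low level (5.14 to 5.39 in WAR S and 5.78 to 5.86 in Wistar S). *Ttr*, a member that the diagram names, also passed. Of 7 red blood cell markers outside the diagram *Ahsp*, the chaperone of alpha-globin, fell, with a difference of -0.46 ± 0.08 (limma, adjusted p = 0.0426), again at a very low level (4.50 to 4.54 in WAR S and 4.84 to 5.14 in Wistar S), and 6 of the 7 were negative, most of them close to 0 with a median of -0.03, with a mean level of 6.48 to 6.61 in WAR S and 6.66 and 6.77 in Wistar S. These values stand beside that of *Hbb-b1*, and the part of residual blood in it was not tested.

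**Figure D4:**
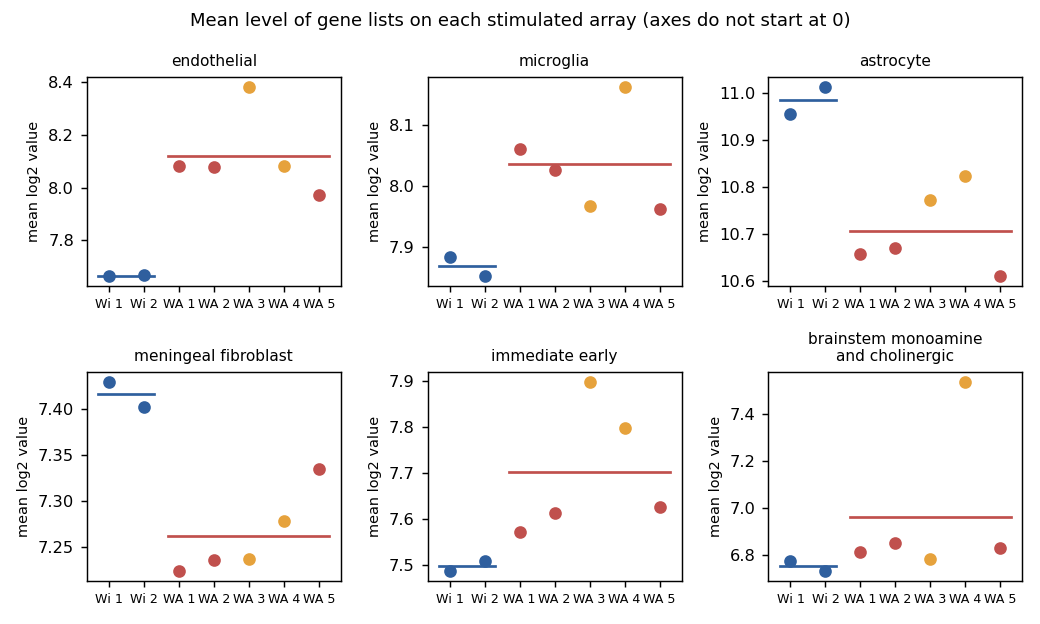
Each panel gives the mean log2 value of a gene list on every stimulated array, Wistar S in blue (Wi), WAR S 1, 2 and 5 in red and WAR S 3 and 4 in orange (WA), with lines at the group means. Endothelial levels were 7.97 to 8.38 in WAR S against 7.66 and 7.67, astrocyte levels 10.61 to 10.82 against 10.96 and 11.01, and the brainstem list was high on WAR S 4 alone.

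None of 20 general neuronal markers passed, and their median was 0.00. *Egr3*, an immediate early gene that the diagram names, passed. Of the 49 immediate early genes outside the diagram, 41 had a positive difference, where 55.7% of all genes did, with a median of 0.18, but none passed. The 3 of smallest p were *Dusp6*, a MAP kinase phosphatase, at -0.59 ± 0.12, *Rheb*, an activator of mTORC1, at 0.31 ± 0.07 and *Klf10*, a zinc finger transcription factor, at 0.76 ± 0.17, with adjusted p from 0.0701 to 0.0824. That median was 0.06 in the first running series, without WAR S 3 and 4. In 23 of the 49 (46.9%) both WAR S 3 and WAR S 4 lay above all other 5 stimulated arrays, as did 1013 genes in all (6.98%). *Egr1*, a transcription factor of this class, was 9.96, 10.09, 11.24, 11.22 and 10.29 in WAR S against 9.79 and 9.92, and *Arc*, a synaptic regulator, was 8.73, 8.64, 9.83, 9.75 and 8.91 in WAR S against 8.84 and 8.69. High values were again those of WAR S 3 and 4 in these genes, named after their values were seen, and the differences of 0.71 ± 0.41 and 0.41 ± 0.38 had adjusted p of 0.505 and 0.722.

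Of 35 neuropeptide and secretory granule genes outside the diagram, 31 were positive (55.7% of all genes were), 2 rose (1.19% of all genes did) and none fell. Their median was 0.10, and 14 had every WAR S array above Wistar S, as had 12.4% of all genes. *Penk*, the precursor of the enkephalins, was 10.16, 10.18, 10.28, 10.07 and 10.45 in WAR S against 9.42 and 9.67. Its WAR S values were all higher, most so in WAR S 5, by 0.68 ± 0.12 (limma, adjusted p = 0.045), a call that ended whichever array was left out. *Chgb*, the granule protein chromogranin B, was 11.35, 11.24, 11.35, 11.29 and 11.25 in WAR S against 10.71 and 10.88, a difference of 0.50 ± 0.06 (limma, adjusted p = 0.0185). *Resp18*, another protein of secretory granules that was on no list and was named after its values were seen, was 11.00, 10.90, 10.96, 11.18 and 10.90 in WAR S against 10.28 and 10.08, a difference of 0.81 ± 0.09 (limma, adjusted p = 0.0173). All 3 were above Wistar S on each WAR S array, and the mean over the list was 7.53 to 7.62 in WAR S and 7.37 and 7.39 in Wistar S.

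Single receptor and channel genes for fast transmission passed. Over all genes 1.89% passed in either direction, the share beside which the counts of this paragraph stand. Of 28 GABA and glycine genes *Abat* passed (3.57%) and of 37 glutamate receptor genes *Grin2c* (2.7%). Of 60 voltage-gated and potassium channel genes *Kcnj16* passed (1.67%). The medians of these lists were 0.02, -0.03 and 0.04. Of 42 receptors for amines and acetylcholine outside the diagram, *Htr3a* fell and *Chrm3*, a muscarinic receptor, rose, the latter being 8.94, 8.95, 8.80, 8.84 and 8.99 in WAR S against 8.48 and 8.56, a difference of 0.38 ± 0.06 (limma, adjusted p = 0.0367). *Htr2a*, a member that the diagram names, also passed. Of 43 synaptic vesicle genes *Syt4*, a synaptotagmin that acts in dense core vesicles, rose, from 9.98, 10.05, 9.95, 9.80 and 9.95 in WAR S against 9.46 and 9.38, by 0.53 ± 0.07 (limma, adjusted p = 0.0239). Of 61 genes of cyclic nucleotide and calcium signaling, *Ryr1*, a calcium release channel, fell, with a difference of -0.46 ± 0.05 (limma, adjusted p = 0.0168), and *Rcan2*, an inhibitor of calcineurin, rose by 0.23 ± 0.03 (limma, adjusted p = 0.0331). Among 23 markers of IC and tectum *Ebf1*, a transcription factor, rose by 0.48 ± 0.07 (limma, adjusted p = 0.0321), while of 21 cerebellar genes *Rgs8* rose (0.33) and *Pcp2* fell (-0.27), with adjusted p of 0.0349 and 0.0425, the call of *Pcp2* ending whichever array was left out.

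Of 41 genes of glycolysis and the citric acid cycle 1 rose and 1 fell, against 1.19% and 0.703% of all genes. *Ldha*, the lactate dehydrogenase subunit of glycolytic cells, rose, being 11.06, 11.06, 11.00, 11.19 and 11.19 in WAR S against 10.67 and 10.69, a difference of 0.42 ± 0.06 (limma, adjusted p = 0.0331) for its brighter probe set. A second probe set of *Ldha* ran the other way, so that the mean of both gave -1.21. *Suclg2*, a subunit of succinyl-CoA ligase of the citric acid cycle, was 9.80, 9.87, 9.63, 9.72 and 9.62 in WAR S against 10.24 and 10.45, a difference of -0.62 ± 0.09 (limma, adjusted p = 0.0315) that lost its call whichever array was left out. *Etfdh*, which passes electrons from fatty acid oxidation to the respiratory chain, was 8.65, 8.65, 8.57, 8.48 and 8.64 in WAR S against 9.02 and 8.95, a difference of -0.39 ± 0.06 (limma, adjusted p = 0.0331), and with *Acsl6* it made 2 of 37 fatty acid and ketone genes to fall, 27 being negative. None of 34 complex I genes passed, 22 of which were positive with a median of 0.14. Over all genes 55.7% were positive. *Cox8a*, a subunit of cytochrome c oxidase, was the only 1 of 35 genes of complexes II to V to pass, from 12.84 to 12.98 in WAR S and 12.46 to 12.55 in Wistar S, a difference of 0.38 ± 0.05 (limma, adjusted p = 0.0238). Of 68 genes of the mitochondrial ribosome 51 were positive and 1 rose (1.47%, near the share of all genes): *Mrpl17*, by 0.41 ± 0.06 (limma, adjusted p = 0.0275).

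*Mt1*, the metal-binding protein metallothionein 1, had the largest difference outside the diagram, 1.69 ± 0.31, but missed the threshold (limma, adjusted p = 0.0527), with 11.82, 11.59, 10.77, 11.50 and 11.21 in WAR S against 10.03 and 9.35. The groups did not overlap, though the Wistar S pair was itself widely spread. *Cdkn1a*, the cell cycle inhibitor p21 and a target of p53 and of glucocorticoids, was 8.20, 8.17, 8.42, 8.27 and 8.28 in WAR S against 7.77 and 7.72, a difference of 0.52 ± 0.07 (limma, adjusted p = 0.0249). It was the only member of 34 glucocorticoid and hypoxia genes to pass, where 1.89% of all genes passed and 1.19% rose. The median of that list, 0.20, went to 0.05 in the first running series. *Calr*, the endoplasmic reticulum chaperone calreticulin, fell, with a difference of -0.44 ± 0.06 (limma, adjusted p = 0.028), opposite to *Cryab*, the other call among 38 chaperones. Of 19 clock genes, *Nr1d2*, a nuclear receptor that represses clock genes, rose by 0.32 ± 0.04 (limma, adjusted p = 0.0256) and *Per3*, a period gene, by 0.31 ± 0.05 (limma, adjusted p = 0.0487), the latter lost whichever array was left out. *Dusp14*, a phosphatase of the MAP kinases, was 9.37, 9.49, 9.78, 9.67 and 9.66 in WAR S against 8.87 and 8.85, highest in WAR S 3, by 0.73 ± 0.11 (limma, adjusted p = 0.0327).

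Transport and translation genes passed in both directions. Over all genes 1.89% passed. *Slc39a10*, a zinc importer, was 10.01, 9.93, 10.01, 9.88 and 10.05 in WAR S against 9.43 and 9.42, well apart at 0.55 ± 0.05 (limma, adjusted p = 0.0133). *Rpl8* and *Rps14*, proteins of the large and the small ribosomal subunit, differed by 0.71 ± 0.07 and -0.64 ± 0.07, the only 2 calls among 68 ribosomal protein genes. Both have more than 1 probe set and processed copies elsewhere in the genome, which makes their signals uncertain. *Psmd7*, a lid subunit of the proteasome, rose by 0.34 ± 0.05 (limma, adjusted p = 0.0286) as the 1 call of 42. Of genes tied to epilepsy in people, *Nprl2*, a subunit of the complex that restrains mTORC1, rose by 0.22 ± 0.03 (limma, adjusted p = 0.034) and *Nhlrc1*, malin, whose loss causes Lafora disease, fell, with a difference of -0.39 ± 0.06 (limma, adjusted p = 0.041), both calls ending whichever array was left out. None of the genes tested for the lysosome (48 genes), splicing (62), neurotrophins and growth factors (50), extracellular matrix (47) or cholesterol synthesis (27) passed, and their medians lay between -0.03 and 0.01.

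Promoters were searched for the cyclic AMP response element, written TGACGTCA and the same on both strands, because many activity-regulated genes carry it. The windows were the 250 bases before each RefSeq gene start in the assembly GRCr8, where 11968 tested genes had a sequence. It was found in 273 of these (2.28%), in 5 of 119 genes that rose outside the diagram (4.2%) and in 1 of 72 that fell (1.39%). *Ldha* is among those 5 by its brighter probe set only, since its second probe set ran the other way. The windows of *Ldha* and *Cox8a*, described above, and of *Ppp1r15a*, a regulatory subunit that restores translation after stress, are printed as examples. They run 5′ to 3′ along the gene, with the element in capitals. They lie at chr1:106508011-106508078 on the plus strand, chr1:213833662-213833729 on the minus strand and chr1:105139625-105139692 on the minus strand, the element starting 51, 76 and 66 bases before the gene start.
*Ldha*: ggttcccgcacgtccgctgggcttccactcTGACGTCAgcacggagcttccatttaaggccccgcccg
*Cox8a*: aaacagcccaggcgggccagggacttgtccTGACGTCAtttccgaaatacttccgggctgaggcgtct
*Ppp1r15a*: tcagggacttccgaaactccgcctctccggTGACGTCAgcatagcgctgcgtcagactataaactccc
*Ppp1r15a* was 7.91, 7.89, 7.86, 7.77 and 7.77 in WAR S against 7.52 and 7.48, a difference of 0.34 ± 0.05 (limma, adjusted p = 0.0352). A match of these letters is a description and not a site. The other higher genes with the element were *Appbp2* and *Taf10*.

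The last question was how far the same strain difference was present without sound. Unstimulated and stimulated arrays share no tied value and were each compared only within their own set. In WAR N against Wistar N, 4 arrays each, 878 genes (6.05%) were called, 65 of them also among the 274, that is 23.7% of the calls after sound and 7.4% of those without, and 64 of the 65 had the same sign. Among the 24 genes of largest difference, 23 had the same sign without sound and 9 were called there, 5 rises and 4 falls. *P2ry12* differed by 1.26 (adjusted p = 0.00543) without sound, *Fcer1g* by 1.29 (0.0218) and *Tek* by 0.79 (0.0386). *Ephx2* differed by -1.36 (0.00543), *Ptpa* by -0.90 (0.00704) and *Glud1* by -0.87 (0.0179). For these genes the strain difference was thus measured both with and without sound.

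**Figure D5:**
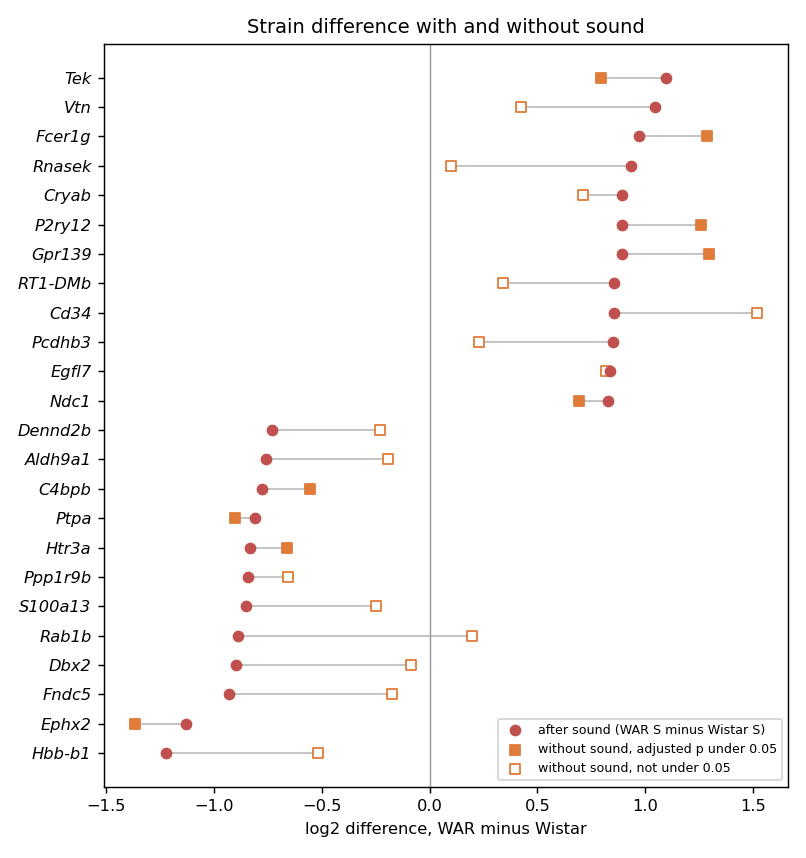
Each row is a gene, with the log2 difference between WAR and Wistar after sound (red circles, 5 against 2 arrays) and without sound (orange squares, 4 against 4 arrays). Squares are filled where limma's adjusted p without sound was under 0.05, in 9 of 24 genes, and only the square of *Rab1b* lies on the other side of 0.

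Without sound 6.05% of all genes were called, in either direction. By list, the endothelial median was 0.35 without sound with 4 members called higher, and the astrocyte median was -0.35 with 6 called lower, both on the same side as after sound. Of 22 microglial markers 7 were called higher without sound, with a median of 0.16. Complex I had a median of 0.38 with 4 higher and 1 lower. The neuropeptide list had a median of 0.10 without sound, as after it, with 3 members called lower and none higher, and the immediate early genes a median of 0.03.

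A direct test of the difference between the strain effects called 15 genes (0.103%), whereas 2169 (15%) had an unadjusted p under 0.05. Of the genes outside the diagram that passed both this test and that of WAR S against Wistar S there were 3, named after their values were seen. *Gulp1*, an adaptor of engulfment receptors, was 7.82, 7.93, 7.80, 7.66 and 7.93 in WAR S against 8.26 and 8.51, lower in WAR S by 0.55 and higher without sound by 0.44, a difference between the effects of -1.0 (limma, adjusted p = 0.00814), while its call after sound alone ended whichever array was left out. *Bloc1s5*, a subunit of a complex for lysosome-related organelles, was 9.26, 9.26, 9.21, 8.92 and 9.22 in WAR S against 9.78 and 9.75, and its effects were -0.59 with sound and 0.36 without, -0.94 apart (adjusted p = 0.0431). *Cisd3*, a mitochondrial iron-sulfur protein, was 8.54, 8.47, 8.59, 8.61 and 8.47 in WAR S against 8.00 and 7.98, and its effects were 0.55 and -0.23, 0.78 apart (adjusted p = 0.0431). Leaving out 1 stimulated array left between 0 and 6 genes in this test. For *Rab1b*, *Rnasek*, *Dbx2* and *Fndc5*, with differences without sound of 0.20, 0.10, -0.08 and -0.17, the difference between the effects did not pass, with adjusted p from 0.123 to 0.264.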

How the data were processed

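RNA of the IC was hybridized to Affymetrix Rat Gene 1.0 ST arrays. The deposited values are on the log2 scale, from RMA (background correction, quantile normalization, median polish) as run by the authors, with a version not given in the sources read. Of 29214 probe sets, 15310 carried 1 gene symbol, 323 several and 13581 none, and 15279 of the first matched the GRCr8 table by gene ID with 0 symbols updated. The 14506 genes were tested by the probe set with the highest mean over the 7 stimulated arrays (527 genes had more than 1). Groups came from the sample titles. WAR S and Wistar S were compared with limma 3.58.1 in R 4.3.3 (lmFit, eBayes, Benjamini-Hochberg over all genes) on these 7 arrays alone, and the difference between strain effects on all 15. Values after ± are standard errors of the fit. SAM, which the methods name, was not run. Scripts were tested on simulated data. The number of arrays, the ties and the arrays that stand apart limit the precision, and signal over background is not in the values.

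Of 71 names read by eye from the study's diagram, used solely to leave genes out, 42 were measured. Genes named were the 12 largest rises and 12 largest falls that passed outside the diagram with groups that do not overlap, and of each of 57 gene lists up to 5 members that passed, or up to 3 of smallest p where fewer than 2 passed, not all of which are printed; where a gene was named otherwise, the text says so. Members and lists were chosen with earlier results of these data known. Alternatives were the replicate block, the first running series, all 15 arrays, trend and robust moderation, array weights, a filter on dim genes, other probe set choices, cyclic loess, ties left out, fold rules, an unmoderated spread and each array left out. Dropping every tie and the unmoderated spread were chosen after seeing the data.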

Additional observations from a re-analysis of the deposited data

Results flagged for a closer look

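Among the 5 WAR S arrays, 1 array stood apart from the rest by Dixon's test in 11 of 128 sets of values tested, where chance gives about 1 in 20 (5%), and 7 of the 11 were in WAR S 4. For single genes these were *Pecam1* in WAR S 3 at 7.80 and, in WAR S 4, *Cox8a* at 12.98, *Ryr1* at 6.67, *Cntn6*, a neuronal contactin, at 8.83 and *Bloc1s5* at 8.92. For the mean of a gene list they were the endothelial list at 8.38 in WAR S 3, the forebrain list at 7.49 in WAR S 5, the complex I list at 10.67 in WAR S 2 and, in WAR S 4, the monoamine and cholinergic brainstem list at 7.54, the list of MHC and antigen presentation at 7.22 and the list of hearing and epilepsy genes at 8.66. The strain difference itself differed between sound and no sound for *Gulp1* (-1.0), *Bloc1s5* (-0.94) and *Cisd3* (0.78), each past an adjusted p of 0.05 in limma's test of that difference. The cause of these values was not tested.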

How the results depend on the processing

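The count of 274 genes was within 1.5 times for 223 genes with the first running series, 221 with trend and robust moderation, 306 without the dimmest 25% of genes, 279 with the mean over probe sets, 289 with all probe sets, 319 with cyclic loess and 355 or 306 without identical values. It was 60 with all 15 arrays in the model (51 shared), 707 with array weights, 54 with no moderation of the spread, 39 with a fold of at least 2 and p of at most 0.05, and 30 with adjusted p and fold of at least 2. Leaving out 1 array gave 9 to 226 genes, and where 1 Wistar S array was left it was assumed to vary like the WAR S arrays. With the replicate number as a block, 0 genes passed in limma and 2910 had an unadjusted p under 0.05. Deviations of same-numbered arrays from their group means correlated at r of 0.03 and -0.05. The 2 Wistar S arrays deviate from their mean as mirror images, so these values cannot decide whether same-numbered arrays share more than a number. For the difference between strain effects the count of 15 became 0 with the replicate block, 9 with trend and robust moderation, 16 without the dimmest 25% of genes and 0 to 6 without 1 array. All 24 genes of largest difference kept their direction wherever they were fitted. Of 71 named genes that passed, 18 lost their call whichever array was left out. Of 1320 refits of genes that passed, 1319 kept the direction and 663 the call. The exception was *Ldha*, at -1.21 with the mean over its probe sets, where the second probe set runs the other way; *Dbh*, which had not passed, turned to -0.0112 without Wistar S 2 (0.33 without Wistar S 1), and the cause was not tested.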
